A study of Mus musculus with 64 samples.

Results

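Titin and 9 genes of the Z-disc stretch response were followed in a mouse model of arrhythmogenic right ventricular cardiomyopathy (ARVC), in which Pkp2, the gene of the desmosome protein plakophilin-2, is deleted in heart muscle cells. The 10 genes were Ttn, Xirp1, Xirp2, Ankrd1, Ankrd2, Myot, Fhl1, Fhl2, Csrp3 and Trim63. They were chosen by name, with earlier results of these data known, and were 10 of the 39152 named genes of the table. Each of 32 C57BL6 mice gave 1 library of the right ventricle (RV) and 1 of the left (LV), 64 in all. All animals carried floxed Pkp2 alleles (Pkp2 fl/fl). WT animals were littermates without Cre that received the buffer HBSS (9 animals). The cKO animals carried a tamoxifen-activated Cre under the αMyHC promoter, which deletes Pkp2 in cardiomyocytes and leaves the gene in the other cells of the heart, and received HBSS (4 animals). The other 3 groups were cKO animals dosed with AAV9:mPkp2, an adeno-associated virus that carries mouse Pkp2 behind a cardiac troponin T promoter, which is active in cardiomyocytes. AAV_3E13 (8 animals) received 3E13 vector genomes per kg and AAV_1E14 (5 animals) received 1E14, both 1 week before tamoxifen by the labels, although the study's texts differ on whether this dose came before or after tamoxifen. AAV_1E14_2.5wk (6 animals) received 1E14 at 2.5 weeks after tamoxifen. All were adult mice, and per the methods the cKO hearts were collected at an earlier time after induction than the others, so every comparison with cKO also holds a difference in age and time.

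Titin is the giant spring of the sarcomere. It runs from the Z-disc, where actin filaments of neighbouring sarcomeres are anchored, to the M-band at the centre of the sarcomere, and its elastic part sets much of the passive stiffness of heart muscle. Proteins bound to titin and to the Z-disc are thought to report stretch to the nucleus and to the protein breakdown machinery. Among them, Ankrd1 (CARP) and Ankrd2 are ankyrin repeat proteins that bind the elastic part of titin, Fhl1 and Fhl2 are LIM domain proteins that bind titin, and Csrp3 (MLP) is a LIM protein of the Z-disc. Myot (myotilin) cross-links actin at the Z-disc, Xirp1 and Xirp2 are Xin proteins that bind actin at the intercalated disc, and Trim63 (MuRF1) is a ubiquitin ligase that binds titin near the M-band. Ankrd1 is also a well known marker of strained heart muscle.

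On GRCm39, with GENCODE M39 gene models, Ttn lies on the minus strand at chr2:76534136-76812891 and has 24 annotated transcripts of 271 to 107543 bases, the longest with 347 exons. Xirp2 lies on the same chromosome at chr2:67004178-67356962 (plus strand) and Xirp1 at chr9:119842821-119852664 (minus strand). The 2 ankyrin repeat genes share chromosome 19, with Ankrd1 at chr19:36089352-36097506 (minus strand) and Ankrd2 at chr19:42024274-42033552 (plus strand). Fhl1 lies at chrX:55777147-55838706 (plus strand), Fhl2 at chr1:43162199-43236290 (minus strand), Csrp3 at chr7:48480142-48497901 (minus strand) and Trim63 at chr4:134042393-134056948 (plus strand).

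The 250 bases before the annotated start of the canonical transcript were read on the strand of the gene for 9 of the 10 genes. The windows of Ankrd1, Csrp3 and Trim63 are shown because Ankrd1 was higher in cKO RV while Csrp3 and Trim63 were lower, and because the windows hold 0 bases of annotated exons. They lie at chr19:36097507-36097756 (minus strand), chr7:48497902-48498151 (minus strand) and chr4:134042143-134042392 (plus strand) on GRCm39. Each runs 5′ to 3′ and ends at the base before the start. Capitals mark matches to the M-CAT motif (CATTCC, either strand), which TEAD factors bind, to the CArG box, which SRF binds, and to the MEF2 site, all searched on both strands.
Ankrd1: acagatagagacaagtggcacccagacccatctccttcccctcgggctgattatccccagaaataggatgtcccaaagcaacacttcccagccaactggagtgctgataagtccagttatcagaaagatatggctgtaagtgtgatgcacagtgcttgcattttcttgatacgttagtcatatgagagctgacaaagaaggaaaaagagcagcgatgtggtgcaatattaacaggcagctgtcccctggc
Csrp3: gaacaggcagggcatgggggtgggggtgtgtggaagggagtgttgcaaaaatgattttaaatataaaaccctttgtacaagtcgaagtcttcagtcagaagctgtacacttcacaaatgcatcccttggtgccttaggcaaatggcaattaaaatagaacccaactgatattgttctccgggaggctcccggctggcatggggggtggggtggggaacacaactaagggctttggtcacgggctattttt
Trim63: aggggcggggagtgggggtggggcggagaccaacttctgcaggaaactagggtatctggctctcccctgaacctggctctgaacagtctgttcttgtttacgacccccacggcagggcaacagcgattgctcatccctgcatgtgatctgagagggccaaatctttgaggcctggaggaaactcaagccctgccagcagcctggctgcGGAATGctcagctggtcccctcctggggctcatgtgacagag
Of these windows, that of Trim63 held 1 M-CAT match, beginning 42 bases before the start, and the other two held no match to these 3 motifs. Among the 9 windows read, 2 held an M-CAT match (Ttn and Trim63), 1 a CArG box (Fhl1) and 1 a MEF2 site (Xirp2), and no match overlapped another. Annotated exons cover 220 of the 250 bases of the Fhl1 window, 92 of the Ttn window and 45 of the Xirp2 window. The string TATAAA, on either strand, was found in 2 windows, beginning 189 bases before the start in Csrp3 and 196 in Fhl1. The string AGATAA, a form of the GATA site, was found in 0. Other forms of the GATA site were not searched. Over the 21770 windows of the same length before protein-coding genes, 12.1% held an M-CAT match, 1.4% a CArG box and 0.505% a MEF2 site. The string TATAAA was in 11.9% of them and AGATAA in 9.6%. A match is a description of these letters and not of binding.

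Counts used per library, without mitochondrially encoded genes, ranged from 5.34 to 10.2 M, where M stands for 1e+06. CPM stands for counts per M counts used, where the counts used of a library are multiplied by its TMM normalization factor. Percentages of the counts used are without this factor. Pkp2, the deleted gene, was at 123 to 185 CPM (median 151, n = 9) in the RV and 162 to 220.0 CPM (median 195, n = 9) in the LV of WT animals. In the cKO libraries it was at 38.7, 40.6, 62.5 and 100.1 CPM in the RV and at 34.9, 65.3, 84.3 and 88.3 CPM in the LV, below every WT library of the same ventricle. Reads of the vector's mouse Pkp2 count toward the same gene, and the group means were 296 ± 81.1 CPM (SD, n = 8) in the RV of AAV_3E13, 1302 ± 544 CPM (SD, n = 5) in that of AAV_1E14 and 1927 ± 987 CPM (SD, n = 6) in that of AAV_1E14_2.5wk. Libraries of 2 animals stood apart. The RV library WT_RV_5819 held 661 CPM of 5 atrial transcripts, which reached 1240 CPM in other groups, against a WT RV median of 27.2, and the ventricles of animal AAV_1E14_2.5wk_5814 were the least alike of any animal's (correlation of deviations -0.0865, median 0.199). Results are given without these libraries where a call changed. The WT RV libraries also had the highest median of the effective transcript length, a value that follows the fragments sequenced. Their library factor, the median over genes of the length relative to its mean over libraries, was 1.01 to 1.05 (median 1.03), against 1.01 to 1.02 in cKO RV, 0.980 to 0.989 in AAV_1E14_2.5wk RV and 0.940 to 1.01 in WT LV. These ranges do not overlap between WT RV and AAV_1E14_2.5wk RV, so group and length cannot be told apart there. Nor do they overlap between WT RV and WT LV, where the lowest RV library was at 1.012 and the highest LV library at 1.011, which touches the comparison of ventricles in WT and every interaction.

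Titin and 8 of its partners were well expressed and Ankrd2 was close to absent. Per length, in transcripts per M without mitochondrial genes (TPM, mean over 64 libraries), the order of the levels was Ttn at 2659, Fhl2 at 1216, Csrp3 at 744, Xirp2 at 339.9, Ankrd1 at 317, Fhl1 at 213, Trim63 at 90.4, Myot at 67.5 and Xirp1 at 51.7. The means of Xirp2, Ankrd1 and Fhl1 differed from their neighbours by less than the SD over libraries, as did those of Trim63, Myot and Xirp1, so the order within each of these runs is not set. The order also changed with the group. In cKO LV Csrp3 (mean 496 TPM) and Xirp2 (444 TPM) stood above Fhl2 (413 TPM), and in WT RV Ankrd1 (84.3 TPM) stood below Fhl1 (145 TPM) and beside Trim63 (84.8 TPM). Xirp1 was at 179.6 ± 44.2 CPM (SD, n = 9) in WT RV and 227 ± 64.3 CPM (SD, n = 9) in WT LV, and edgeR called it in 0 of 27 comparisons (4 at an unadjusted p under 0.05), DESeq2 in 2. By its length, Ttn took more counts than any other gene, with 9.42% to 10.9% of the counts used in WT LV libraries and 3.33% to 7.39% in cKO RV libraries. Ankrd2, the skeletal muscle relative of Ankrd1, had a count in 19 of 64 libraries, with at most 8 counts, in library cKO_LV_3213. It did not pass the filter on low counts in any comparison, and a count of 0 allows up to 0.269 CPM in the deepest library and 0.545 CPM in the shallowest. The 7 skeletal muscle markers summed to at most 3.1 CPM in any library.

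**Figure D1:**
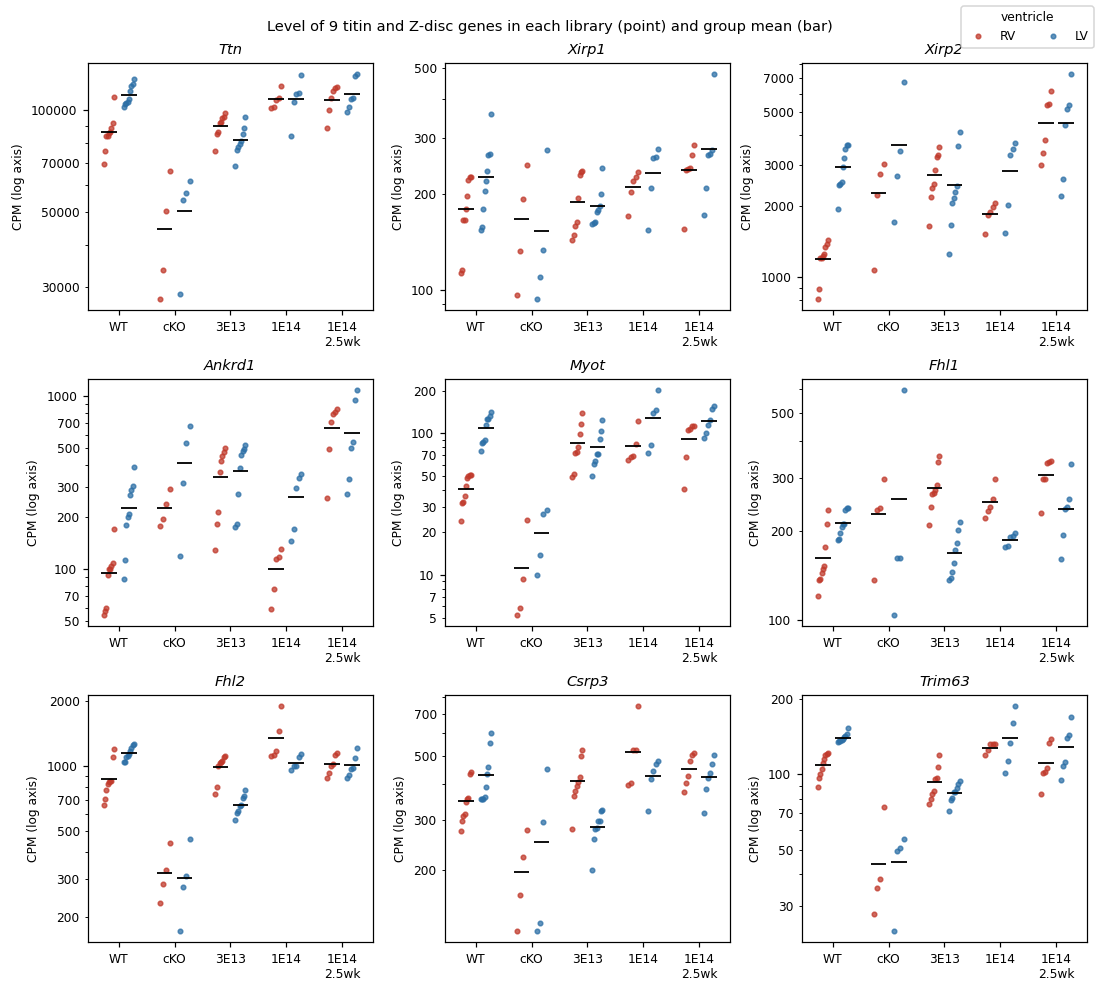
Level in CPM (log axis, scaled separately for each gene) of 9 genes in each library of the 5 groups, RV in red and LV in blue, with the points of a group sorted by value and the bar at the group mean. Ankrd1 in the RV lies between 54.5 and 172 CPM in WT and between 259 and 846 CPM in AAV_1E14_2.5wk, and Fhl2, Trim63 and Myot are lowest in cKO.

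The first question was how the titin system differed between cKO and WT hearts. In the RV, 8 of the 9 genes tested differed and 5 of them were lower, against 42.1% of all genes called (5955 of 14150). Ttn, Myot, Fhl2, Csrp3 and Trim63 were lower, and Xirp2, Ankrd1 and Fhl1 were higher. Ttn was at 27691, 33653, 50510.3 and 66030.1 CPM in cKO RV and at 69385 to 109439.8 CPM (median 85878, n = 9) in WT RV, so that the groups did not overlap. It was 1.92-fold lower (log2 fold change -0.94, SE 0.23, adjusted p = 0.0041). Here and below, the share of all genes without overlap between the groups or ventricles compared was not computed. Myot was at 5.21, 5.86, 9.33 and 24.6 CPM against 24.2 to 50.6 CPM (median 42.3, n = 9), with the highest cKO library, cKO_RV_3213, just above the lowest WT library. Its log2 fold change, -1.86 ± 0.37 (SE, adjusted p = 0.0011), was the largest fall among the 9 genes. Fhl2, which also acts as a transcriptional cofactor, was at 233, 284, 329.7 and 443 CPM against 659 to 1202 CPM (median 844, n = 9) and was 2.68-fold lower (-1.42, SE 0.20, adjusted p = 3.5e-05), without overlap. Trim63 was at 27.7, 35.2, 38.2 and 74.4 CPM against 88.8 to 121 CPM (median 111, n = 9), also without overlap (-1.30, SE 0.21, adjusted p = 0.00012). Csrp3, whose loss causes dilated cardiomyopathy, was at 123, 165, 222 and 277 CPM against 274 to 439 CPM (median 347, n = 9) and the groups overlapped by 1 cKO library (-0.81, SE 0.19, adjusted p = 0.0028).

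The genes that were higher in cKO RV were Ankrd1, Xirp2 and Fhl1. Ankrd1 was at 179, 195, 238 and 293 CPM against 54.5 to 172 CPM (median 100.4, n = 9) in WT RV, and every cKO library lay above every WT library. It was 2.41-fold higher (log2 fold change 1.27, SE 0.25, adjusted p = 0.00096). Xirp2 was at 1072, 2232, 2748 and 3007 CPM against 807 to 1437 CPM (median 1225, n = 9), where 3 cKO libraries lay above all WT libraries and cKO_RV_2052 lay among them (0.93, SE 0.22, adjusted p = 0.0028). Fhl1 was at 136, 234, 238 and 298 CPM against 119.8 to 234 CPM (median 149, n = 9), and its call was at the threshold (0.50, SE 0.19, adjusted p = 0.049). It was lost on leaving out 10 of the 13 libraries in turn, WT_RV_5819 among them. Xirp1, the paralog of Xirp2, was not called (-0.09, SE 0.24, adjusted p = 0.79). With the effective length of the library as a covariate, 2 of the 8 calls in the RV remained, Fhl2 and Trim63. In that fit Ttn had an adjusted p of 0.051 and Ankrd1 a log2 fold change of 1.26 (adjusted p = 0.052). The unequal-variance test on log2(TPM + 1), the kind the study used, called Ankrd1 and Fhl2 among the 9 genes.

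In the LV, 5 of 9 genes were called and all 5 were lower in cKO, against 46.5% of all genes called. They were the same genes that were lower in the RV. Myot was at 9.97, 13.8, 26.8 and 28.8 CPM in cKO LV and at 75.4 to 143 CPM (median 114, n = 9) in WT LV (-2.47, SE 0.29, adjusted p = 1e-05). Fhl2 was at 173, 275, 309 and 462 CPM against 1049 to 1269.9 CPM (median 1139, n = 9) (-1.94, SE 0.21, adjusted p = 4.7e-06). Trim63 was at 23.8, 49.4, 51.1 and 55.5 CPM against 134 to 153 CPM (median 138, n = 9) (-1.66, SE 0.17, adjusted p = 4.4e-06). The cKO and WT libraries did not overlap in any of these 3 genes. Ttn was at 28562, 54222, 56806 and 61780.0 CPM against 102191 to 123939 CPM (median 108269, n = 9), again without overlap (-1.17, SE 0.21, adjusted p = 0.0004). The unequal-variance test on log2(TPM + 1) called Myot, Fhl2 and Trim63 in this ventricle. Csrp3 was close to the threshold (-0.79, SE 0.30, adjusted p = 0.045) and was lost in 8 of 13 fits that left out 1 library, that without WT_LV_5819 among them. Xirp1 was at 93.5, 109.7, 134 and 276 CPM against 154 to 357 CPM (median 219, n = 9) (-0.59, SE 0.28, adjusted p = 0.1). With the effective length of the library as a covariate, edgeR called Xirp1 lower (-0.95, adjusted p = 0.0035). Ankrd1 was at 119, 316, 539.8 and 677 CPM against 88.0 to 393 CPM (median 209, n = 9), where the 2 lowest cKO libraries lay within the WT range (0.84, SE 0.41, adjusted p = 0.11). Fhl1 was at 104, 161, 161 and 595 CPM, and its direction rested on library cKO_LV_3213. With that library its log2 fold change was 0.25 (adjusted p = 0.56), and without it the value was -0.60 (adjusted p = 0.0049).

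In these bulk samples fewer cardiomyocytes and less RNA per cardiomyocyte cannot be told apart. The summed level of 7 cardiomyocyte markers was 9771 to 29848 CPM (median 16348) in cKO RV and 28371 to 40244 CPM (median 33243) in WT RV, and 5 of the 7 were lower (median log2 fold change -0.87). In the LV the sum was 7698 to 20725 CPM (median 19505) against 37338 to 47235 CPM (median 40368), and all 7 were lower (median -1.34). The median over the 9 genes was -0.81 in the RV and -0.79 in the LV, beside medians over all genes of 0.02 and 0.05. Markers of other cells differed by cell type. In cKO RV, 4 of 6 fibroblast and 5 of 5 macrophage markers were higher, and the macrophage markers summed to 338 to 847 CPM (median 575) against 76.2 to 137 CPM (median 107). Of 4 endothelial markers 1 was lower there, Kdr, a receptor of VEGF, at -0.49 (SE 0.18, adjusted p = 0.034), and the 4 smooth muscle markers were at -0.36 to 0.62 with adjusted p of at least 0.42. In cKO LV, 2 of 6 fibroblast, 5 of 5 macrophage and 1 of 4 endothelial markers were higher. The part of cell composition in the differences of the 9 genes was not tested.

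**Figure D2:**
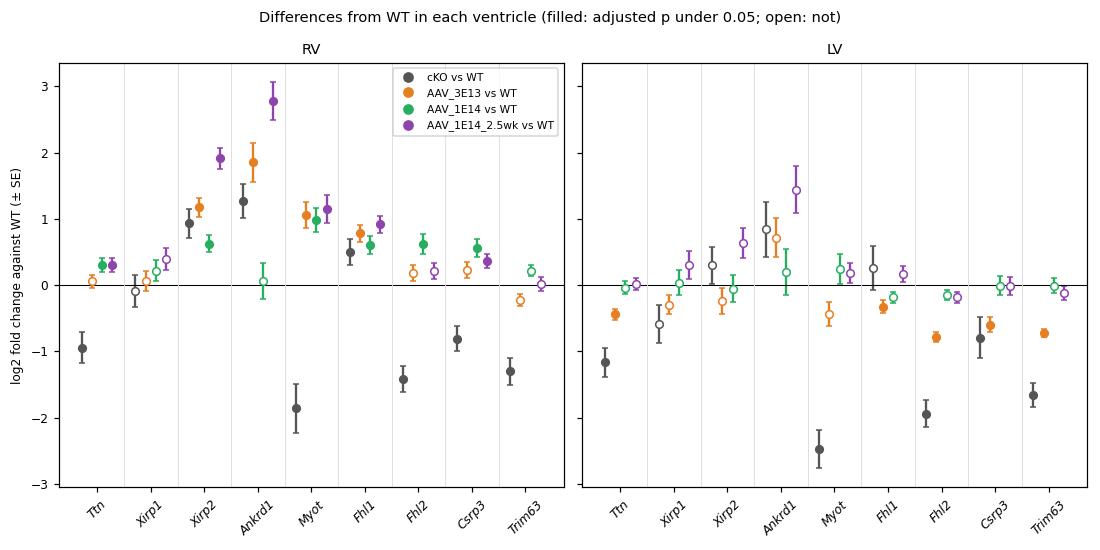
Log2 fold change against WT (points, ± SE) of 9 genes in the RV (left) and LV (right) of cKO and of the 3 vector groups, where filled points passed an adjusted p of 0.05. Ankrd1 in the RV stands at 1.27 in cKO, 1.85 in AAV_3E13, 0.06 in AAV_1E14 and 2.77 in AAV_1E14_2.5wk, and in the LV of both groups given 1E14 no gene passed.

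The next question was how far the vector groups differed from WT. In the RV every called gene was higher than in WT, in all 3 vector groups. In AAV_3E13, 4 of 9 genes were called, against 21.7% of all genes. In AAV_1E14 there were 6, against 29.3%, and in AAV_1E14_2.5wk also 6, against 36%. Ankrd1 separated AAV_1E14 from AAV_1E14_2.5wk, and the libraries of AAV_3E13 overlapped both. It was at 129 to 503 CPM (median 395, n = 8) in AAV_3E13 RV, at 58.9, 76.8, 115, 118 and 131 CPM in AAV_1E14 RV and at 259 to 846 CPM (median 749, n = 6) in AAV_1E14_2.5wk RV. The libraries of AAV_1E14 lay within the WT range of 54.5 to 172 CPM, all those of AAV_1E14_2.5wk lay above it, and those of AAV_3E13 overlapped it. Against WT, Ankrd1 was 3.61-fold higher in AAV_3E13 (log2 fold change 1.85, SE 0.30, adjusted p = 0.00086) and 6.83-fold higher in AAV_1E14_2.5wk (2.77, SE 0.29, adjusted p = 1.3e-05). In AAV_1E14 the value was 0.06 ± 0.27 (SE, adjusted p = 0.89).

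Xirp2 was higher than in WT RV in each of the 3 groups. It was at 1647 to 3571 CPM (median 2678, n = 8) in AAV_3E13, at 1523, 1836, 1894, 1987 and 2064 CPM in AAV_1E14 and at 2987 to 6175 CPM (median 4597, n = 6) in AAV_1E14_2.5wk, and all of these libraries lay above the highest WT RV library, at 1437 CPM. The log2 fold changes were 1.18 ± 0.15 (SE, adjusted p = 8.1e-05), 0.62 ± 0.13 (SE, adjusted p = 0.002) and 1.91 ± 0.16 (SE, adjusted p = 6.2e-07). Myot, which was lower in cKO RV, was at 49.2 to 139 CPM (median 77.2, n = 8), 64.5, 68.0, 69.6, 84.4 and 123 CPM and 40.6 to 113 CPM (median 106, n = 6) in the 3 groups, and the libraries of AAV_1E14 lay wholly above those of WT. It was 2.09-fold higher than WT in AAV_3E13, 1.98-fold higher in AAV_1E14 and 2.21-fold higher in AAV_1E14_2.5wk (adjusted p = 0.0016, 0.00099 and 0.00074). Fhl1 was at 208 to 356 CPM (median 270.4, n = 8), 221, 233, 241, 255 and 298 CPM and 228 to 342 CPM (median 318, n = 6), each overlapping WT. It was 1.72-fold higher, 1.53-fold higher and 1.89-fold higher in the same order (adjusted p = 0.0005, 0.0029 and 5.5e-05). Csrp3, with 395, 402, 523, 524 and 743 CPM in AAV_1E14 RV and 376 to 513 CPM (median 453, n = 6) in AAV_1E14_2.5wk RV, was higher in AAV_1E14 (0.56, SE 0.14, adjusted p = 0.0066) and AAV_1E14_2.5wk (0.37, SE 0.11, adjusted p = 0.012). Fhl2 was at 1115, 1125, 1181, 1458 and 1894 CPM and was higher in AAV_1E14 (0.62, SE 0.15, adjusted p = 0.0044). Ttn was at 101668, 102597, 107447, 108623 and 118205 CPM in AAV_1E14 RV and 88523 to 116848 CPM (median 111479, n = 6) in AAV_1E14_2.5wk RV, within reach of the WT libraries. It was called higher in both groups given 1E14, with log2 fold changes of 0.31 and 0.31, but its adjusted p of 0.043 and 0.033 passed the threshold in only 3 of 14 and 8 of 15 fits that left out 1 library. With offsets made from the effective length of each gene, the values fell to 0.07 (adjusted p = 0.71) and 0.13 (adjusted p = 0.43), and on log2(TPM + 1) that of AAV_1E14 was 0.13 (adjusted p = 0.26 by the unequal-variance test). By edgeR, Trim63 and Xirp1 were called in none of the 3 groups, with log2 fold changes between -0.23 and 0.40. DESeq2 called Trim63 higher in AAV_1E14 (adjusted p = 0.023), as did edgeR with DESeq2 size factors, with mitochondrial genes kept or with the series of animal numbers as a term. That last fit called Trim63 lower in AAV_3E13 (-0.24, adjusted p = 0.038). DESeq2 called Xirp1 higher in AAV_1E14_2.5wk (adjusted p = 0.035), as did 4 other alternatives. The unequal-variance test on log2(TPM + 1) called Fhl2 (0.40, adjusted p = 0.039) and Csrp3 (0.43, adjusted p = 0.020) higher in AAV_3E13. It also called Fhl2 higher in AAV_1E14_2.5wk (0.49, adjusted p = 0.0080). There edgeR called Fhl2 with length offsets (adjusted p = 0.027) and with the series of animal numbers taken into account (adjusted p = 0.013).

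With the effective length of the library as a covariate, Ankrd1, Xirp2, Myot and Fhl1 stayed called in AAV_3E13 RV and Xirp2, Myot, Fhl1, Fhl2 and Csrp3 in AAV_1E14 RV. Xirp1 and Csrp3 were added in the former, and Ttn gave way to Xirp1 in the latter. In AAV_1E14_2.5wk RV, where length and group do not overlap, Fhl1 and Csrp3 stayed called and Xirp1 was added. Ankrd1 there had a log2 fold change of 2.94 (adjusted p = 0.097) and Xirp2 one of 1.38 (adjusted p = 0.11). Both stayed called with edgeR offsets made from the length of each gene. Without library AAV_1E14_2.5wk_RV_5814 the count in this group was 5, with Ttn lost. Of 6 fibroblast markers, 5 were higher than in WT RV in AAV_3E13, 0 in AAV_1E14 by edgeR and 4 in AAV_1E14_2.5wk, while all 4 endothelial markers were lower in each group. The part of this in the levels of the 9 genes was not tested.

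In the LV of AAV_3E13, 5 of 9 genes were called and all were lower than in WT, against 39% of all genes. Trim63 was at 71.4 to 94.0 CPM (median 85.0, n = 8) in AAV_3E13 LV, wholly below the WT LV range of 134 to 153 CPM (-0.72, SE 0.06, adjusted p = 3.1e-07). Fhl2 was at 564 to 779.9 CPM (median 656, n = 8), also wholly below the WT range (-0.79, SE 0.08, adjusted p = 4.8e-07). Ttn was at 68306 to 95321 CPM (median 80435, n = 8), and its highest library lay below the lowest of WT LV, at 102191 CPM (-0.44, SE 0.08, adjusted p = 0.00032). Csrp3, without overlap (-0.59, SE 0.12, adjusted p = 0.0006), and Fhl1 (-0.33, SE 0.10, adjusted p = 0.01) were lower too. Of the cardiomyocyte markers, 6 of 7 were lower in the same libraries (median -0.53), while 5 of 6 fibroblast, 5 of 5 macrophage and 4 of 4 endothelial markers were higher, and their part was not tested. The unequal-variance test on log2(TPM + 1) called Trim63, Fhl2 and Csrp3 here. With the effective length of the library as a covariate, edgeR also called Xirp1 lower (-0.48, adjusted p = 0.0058). It did so with length offsets too (-0.37, adjusted p = 0.025). In AAV_1E14 LV no gene of the 9 was called, against 0.0075% of all genes by edgeR (1 of 13327, with 595 at an unadjusted p under 0.05), and DESeq2 called 0 of the 9 too. The log2 fold changes lay between -0.18 (Fhl1) and 0.24 (Myot). In AAV_1E14_2.5wk LV no gene of the 9 was called by edgeR, against 1.44% of all genes (2202 at an unadjusted p under 0.05). Ankrd1 was at 274 to 1082 CPM (median 523, n = 6) there, against 88.0 to 393 CPM (median 209, n = 9) in WT LV, and its log2 fold change was 1.44 ± 0.36 (SE, adjusted p = 0.062). DESeq2 called it, with an adjusted p of 0.0042, as did edgeR without AAV_1E14_2.5wk_LV_5801 or without AAV_1E14_2.5wk_LV_5807.

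Against untreated cKO, the genes that were low in cKO RV were higher in the RV of each vector group. Ttn, Myot, Fhl2, Csrp3 and Trim63 were called higher in all 3 groups. They were the 5 genes called in AAV_3E13, against 41.9% of all genes, and 5 of the 6 called in AAV_1E14, against 50.4%. They were 5 of the 7 called in AAV_1E14_2.5wk, against 47.6%. Myot was 7.68-fold higher in AAV_3E13, 7.53-fold higher in AAV_1E14 and 8.28-fold higher in AAV_1E14_2.5wk (adjusted p = 0.00032, 0.00073 and 0.00069). Fhl2 was 3.07-fold higher, 4.28-fold higher and 3.19-fold higher in the same order. No vector library overlapped a cKO library in any of the 5 genes, but how many of all genes do the same was not computed. Ankrd1 went in both directions. It was 2.22-fold lower than cKO in AAV_1E14 (-1.15, SE 0.23, adjusted p = 0.0017) and 2.92-fold higher in AAV_1E14_2.5wk (1.54, SE 0.31, adjusted p = 0.0017), while in AAV_3E13 its value was 0.60 ± 0.34 (SE, adjusted p = 0.18). With length as a covariate, none of the 7 calls of AAV_1E14_2.5wk remained, and edgeR called 0 of 13911 genes in that fit (1395 at an unadjusted p under 0.05). The log2 fold changes there were, with the covariate and without it, Xirp2 at 1.77 (SE 0.96) against 1.02, Ankrd1 at 1.40 (SE 0.98) against 1.54 and Myot at 2.60 (SE 1.57) against 3.05. For the other calls they were Fhl2 at 1.11 (SE 0.57) against 1.67, Csrp3 at 0.87 (SE 0.66) against 1.21, Ttn at 0.65 (SE 0.92) against 1.28 and Trim63 at 0.41 (SE 0.83) against 1.35. The library factor was 0.980 to 0.989 in this group and 1.01 to 1.02 in cKO RV, without overlap.

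In the LV the calls against cKO were all higher. Myot, Fhl2 and Trim63 were called in AAV_3E13, against 17.9% of all genes. The same 3 genes and Ttn were called in AAV_1E14, against 35.3%, and in AAV_1E14_2.5wk, against 33.2%. The call of Ttn in AAV_1E14 was lost in edgeR with length offsets (adjusted p = 0.051). It was also lost with the series of animal numbers taken into account (adjusted p = 0.18). In AAV_3E13, DESeq2 called Ttn higher (0.68, adjusted p = 0.0013), as did edgeR with all groups of the ventricle in 1 fit (0.71, adjusted p = 0.00082). Trim63 was 1.85-fold higher in AAV_3E13 (0.89, SE 0.18, adjusted p = 0.007) and 3.08-fold higher in AAV_1E14 (1.62, SE 0.26, adjusted p = 0.0016). The unequal-variance test on log2(TPM + 1) called 0, 1 (Myot) and 0 of the 9 genes in the LV of AAV_3E13, AAV_1E14 and AAV_1E14_2.5wk against cKO, and 2, 5 and 3 in the RV. The comparisons with WT and with cKO share control libraries between the vector groups, so they are not independent of each other.

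Dose was compared between AAV_1E14 and AAV_3E13, which were dosed at the same time. In the RV 3 of 9 genes were called, against 10.1% of all genes. Ankrd1 was 3.49-fold lower at the higher dose (-1.80, SE 0.37, adjusted p = 0.011), with the highest AAV_1E14 library at 131 CPM and the lowest AAV_3E13 library at 129 CPM. Xirp2 was lower (-0.57, SE 0.16, adjusted p = 0.033) and Trim63 was higher (0.43, SE 0.10, adjusted p = 0.014). With all groups of the ventricle in 1 fit, Ankrd1 alone stayed called. In the LV 4 of 9 genes were called and all were higher at the higher dose, against 18.9% of all genes. Trim63 (0.71, SE 0.12, adjusted p = 0.0013) and Fhl2 (0.63, SE 0.09, adjusted p = 0.00052) did not overlap between the doses, and Csrp3 (0.58, SE 0.12, adjusted p = 0.003) and Ttn (0.40, SE 0.13, adjusted p = 0.039) overlapped. The call of Ttn was lost under 5 alternatives, at 0.26 (adjusted p = 0.17) with length offsets and 0.20 (adjusted p = 0.13) on log2(TPM + 1), and that of Csrp3 with all groups in 1 fit (adjusted p = 0.054).

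Time of dosing was compared between AAV_1E14_2.5wk and AAV_1E14. In the RV Ankrd1 was 6.62-fold higher in the group dosed late (2.73, SE 0.34, adjusted p = 0.0048) and Xirp2 was 2.46-fold higher (1.30, SE 0.18, adjusted p = 0.0046), and neither overlapped between the groups. These were the 2 of 9 genes called, against 9.16% of all genes. The length factor of these libraries did not overlap either (0.980 to 0.989 against 0.995 to 1.05), and with it as a covariate neither gene was called, with 1 gene called in all. In that fit the log2 fold changes were 2.92 (SE 0.54, adjusted p = 0.13) for Ankrd1 and 1.09 (SE 0.28, adjusted p = 0.16) for Xirp2. In the LV 0 of the 9 genes and 0% of all genes were called by edgeR, with 953 genes at an unadjusted p under 0.05, and DESeq2 called 0 of the 9 too. The log2 fold change of Ankrd1 was 1.24 ± 0.41 (SE, adjusted p = 0.59).

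The RV and the LV were then compared within each group. In WT hearts 8 of 9 genes were lower in the RV in the fit without pairing, Xirp1 being the exception, against 27.4% of all genes called. With the animal as a block, Xirp1 was called lower (-0.33, adjusted p = 0.043) and Csrp3 was not called (-0.29, adjusted p = 0.091). Myot was 2.67-fold lower (-1.41, SE 0.15, adjusted p = 2.3e-06), and Xirp2 was 2.45-fold lower (-1.29, SE 0.13, adjusted p = 1.6e-06). The ventricles did not overlap in Myot, Xirp2 or Trim63. Ankrd1 was 2.39-fold lower (-1.26, SE 0.28, adjusted p = 0.0036), with overlap. Ttn, Fhl1, Fhl2, Csrp3 and Trim63 had smaller differences, from -0.41 to -0.30 on the log2 scale. The call of Csrp3 was lost in 6 of 9 fits that left out 1 animal, that without WT_5819 among them. With the effective length as a covariate 7 genes were called, with Ttn and Fhl1 lost and Xirp1 added.

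In cKO none of the 9 was called by edgeR, against 0.00726% of all genes (365 genes at an unadjusted p under 0.05), and none by DESeq2, with standard errors of 0.31 to 0.54. In AAV_3E13 Fhl1 (0.72, SE 0.12, adjusted p = 0.00065), Fhl2 (0.56, SE 0.10, adjusted p = 0.001) and Csrp3 (0.52, SE 0.12, adjusted p = 0.0045) were higher in the RV, the opposite direction to WT, against 20.1% of all genes. In AAV_1E14 2 genes were called, against 3.48% of all genes. Fhl1 was higher in the RV (0.40, SE 0.09, adjusted p = 0.029) and Ankrd1 was lower (-1.40, SE 0.32, adjusted p = 0.0497). The ventricles did not overlap in either gene. Both calls were lost on leaving out any of animals AAV_1E14_2034, AAV_1E14_5726, AAV_1E14_5822 and AAV_1E14_5825, and 3 genes were called with the animal as a block, Fhl2 being added. In AAV_1E14_2.5wk none was called, against 0.0226% of all genes (1606 at an unadjusted p under 0.05), and none by DESeq2.

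**Figure D3:**
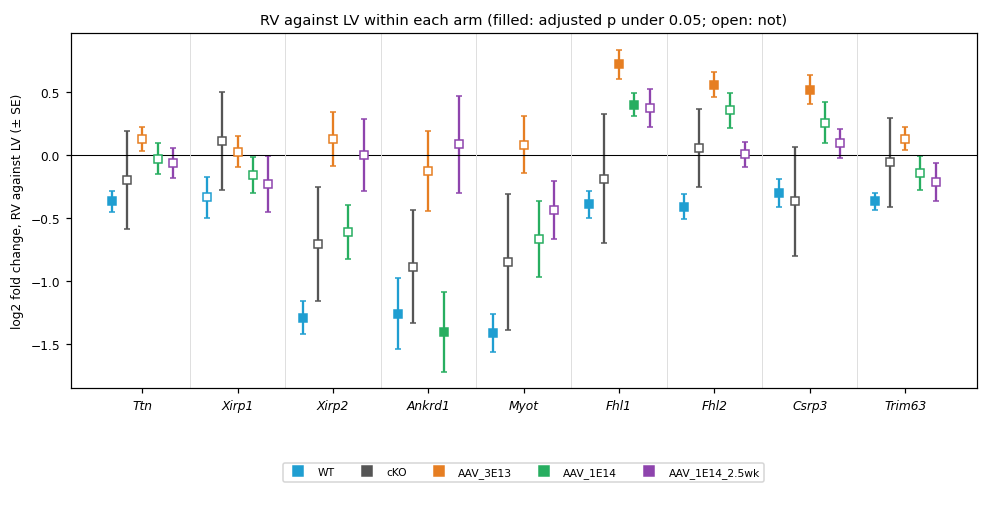
Log2 fold change of the RV against the LV (squares, ± SE) of 9 genes in each of the 5 groups, where filled squares passed an adjusted p of 0.05. In WT 8 genes lie below 0 and passed, and in AAV_3E13 Fhl1, Fhl2 and Csrp3 lie above 0 and passed.

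Whether the difference from WT was itself different between the ventricles was tested as an interaction, with positive values where the RV moved up relative to the LV. Unless stated, the fit had no block for the animal, so both ventricles of a heart were taken as independent. In cKO no gene was called by edgeR, against 0.0272% of all genes (1787 at an unadjusted p under 0.05), and none by DESeq2, and the values lay between -0.05 and 0.60. In AAV_3E13, 8 of 9 genes were called and all were positive, against 36.8% of all genes. Myot (1.51, SE 0.28, adjusted p = 7.6e-05) and Xirp2 (1.43, SE 0.26, adjusted p = 4.3e-05) had the largest values. The log2 fold change of Fhl2 was 0.18 in the RV and -0.79 in the LV, with an interaction of 0.98 ± 0.14 (SE, adjusted p = 1.6e-06). On its own the value in the RV did not pass by edgeR, but passed by the unequal-variance test on log2(TPM + 1). The call of Ankrd1 (1.14, SE 0.43, adjusted p = 0.036) was lost without animal WT_5819 and with no filter on low counts. It was also lost by a linear model of log2(TPM + 1) with a pooled variance. The value of Ttn fell from 0.50 to 0.16 (adjusted p = 0.33) with length offsets. In AAV_1E14, Fhl1 (0.79, SE 0.17, adjusted p = 0.0014) and Fhl2 (0.77, SE 0.18, adjusted p = 0.0026) were called, against 19.8% of all genes. With the animal as a block 5 genes were called, with Ttn, Xirp2 and Myot added. In AAV_1E14_2.5wk 5 genes were called and were positive, against 18.1% of all genes. They were Ankrd1 (1.35, SE 0.47, adjusted p = 0.046), Xirp2 (1.30, SE 0.29, adjusted p = 0.0024), Myot, Fhl1 and Fhl2. The calls of Ankrd1 and Fhl2 were lost without animal AAV_1E14_2.5wk_5814, without animal WT_5819 and in other fits that left out 1 animal, remaining in 6 and 4 of 15. All interactions share the WT RV libraries, whose length factor and lower levels of 8 of 9 genes are given above. Their part was not tested beyond the covariate, under which 8 genes were called in AAV_3E13, Xirp1 in place of Ttn, 3 in AAV_1E14 with Csrp3 added, and 1, Csrp3, in AAV_1E14_2.5wk.

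The titin gene makes transcripts of very different lengths, because exons of the elastic part are included or skipped. The deposited effective length is a mean over the transcripts of a gene that is also adjusted for the fragments sequenced, so it is not a transcript length as such. That of Xirp1 was 6.06 to 7.95 kb over the libraries, above its longest annotated transcript of 5839 bases, and the lowest of Xirp2 was 13.9 kb, above 12612 bases. The annotated lengths here are of GENCODE M39, while the study quantified against an earlier GENCODE release, so the sets of transcripts can differ. How far the value for Ttn follows its mix of transcripts was not tested. Of the annotated transcripts, 3 are longer than 80 kb, at 107543, 100404 and 82187 bases, and 18 are shorter than 4 kb. The length of Ttn was divided by the library factor and compared with WT by exact two-sided permutation tests, with p adjusted over 72 tests of 9 genes. In the LV the mean was 62.4 ± 1.78 kb (SD, n = 9) in WT and 51.2 ± 5.15 kb (SD, n = 4) in cKO, a ratio of 0.817 (adjusted p = 0.0092, exact p = 0.0014, the smallest these group sizes allow). In AAV_3E13 LV it was 56.8 ± 3.16 kb (SD, n = 8) (ratio 0.909, exact test, adjusted p = 0.0049). In the LV of AAV_1E14 and AAV_1E14_2.5wk the means were 62.2 ± 1.33 kb (SD, n = 5) and 62.5 ± 4.26 kb (SD, n = 6) (exact test, adjusted p = 0.89 and 0.99).

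In the RV the effective length of Ttn was 59.3 ± 3.71 kb (SD, n = 9) in WT RV and 56.8 ± 3.34 kb (SD, n = 4) in cKO RV (exact test, adjusted p = 0.51). It was longer than in WT RV in AAV_3E13, at 67.0 ± 3.53 kb (SD, n = 8), in AAV_1E14, at 69.7 ± 2.46 kb (SD, n = 5), and in AAV_1E14_2.5wk, at 67.0 ± 2.76 kb (SD, n = 6) (exact test, adjusted p = 0.0092, 0.0092 and 0.011). Not divided by the library factor, the last of these had an adjusted p of 0.075. Over the 9 genes 18 of the 72 tests were called, 5 of them for Ttn. The share of all genes whose effective length differed from WT was not computed. The count therefore cannot show that these lengths differ more than those of other genes. Xirp1 was shorter than in WT in the RV of all 3 vector groups, by ratios of 0.931, 0.953 and 0.943. An effective length cannot tell which exons differ, and no value per exon or transcript was used here.

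**Figure D4:**
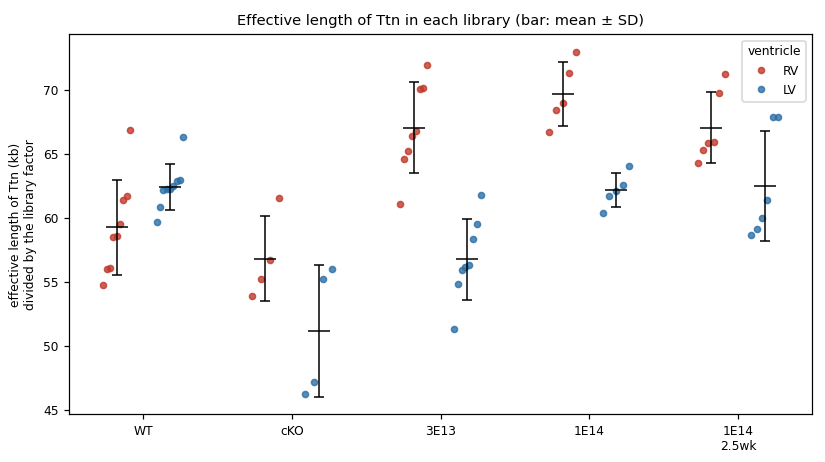
Effective length of Ttn in kb, divided by the library factor, in each library of the 5 groups, RV in red and LV in blue, with points sorted by value and the bar at the mean ± SD; the axis does not start at 0. In cKO LV the 4 libraries lie between 46.3 and 56.0 kb, below the 9 WT LV libraries at 59.7 to 66.3 kb.

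Genes that work with titin were followed as lists, whose counts stand beside 42.1% of all genes called in cKO RV and 46.5% in cKO LV. Of 18 Z-disc scaffold genes, 10 were lower and 1 was higher in cKO RV, and 10 were lower in cKO LV (median log2 fold change -0.62 and -0.93, over all genes 0.02 and 0.05). Nebl, the cardiac nebulette, was at -1.27 (SE 0.18, adjusted p = 3.8e-05) in the RV and -1.74 (SE 0.23, adjusted p = 2.2e-05) in the LV. Myoz2, which binds calcineurin at the Z-disc, was at -1.27 (SE 0.20, adjusted p = 0.00012) and -1.67 (SE 0.24, adjusted p = 4.6e-05). Tcap, the telethonin that caps the end of titin, was at -1.83 (SE 0.29, adjusted p = 0.00014) and -1.45 (SE 0.47, adjusted p = 0.021). The gene that was higher in the RV was Flnc, filamin C, at 0.67 (SE 0.22, adjusted p = 0.02). Of 5 M-band genes 3 were lower in both ventricles. Cmya5 (myospryn) was at -1.67 (SE 0.25, adjusted p = 6.6e-05) in the RV and -2.26 (SE 0.26, adjusted p = 7.6e-06) in the LV. Myom2 and Myom1, the myomesins that cross-link myosin and titin, were at -1.07 (SE 0.21, adjusted p = 0.00073) and -1.04 (SE 0.21, adjusted p = 0.00087) in the RV. Of 9 titin signalling partners tested, 5 were lower in the RV and 7 in the LV. Smyd1, a muscle methyltransferase, was at -1.20 (SE 0.23, adjusted p = 0.00053) and -1.85 (SE 0.23, adjusted p = 1.7e-05), and Trim55 (MuRF2), the relative of Trim63, was at -0.98 (SE 0.18, adjusted p = 0.00042) and -1.03 (SE 0.13, adjusted p = 2.1e-05).

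Of 10 RNA-binding regulators of titin splicing, 4 were lower and 1 was higher in each ventricle of cKO, a share near that of all genes called (42.1% and 46.5%). Rbfox1, a splicing factor of muscle and nerve, was at -2.42 (SE 0.18, adjusted p = 1.9e-07) in the RV and -2.83 (SE 0.25, adjusted p = 1.1e-06) in the LV. Ptbp1, which represses muscle exons, was higher at 1.11 (SE 0.12, adjusted p = 5.3e-06) and 1.47 (SE 0.21, adjusted p = 4.6e-05). Rbm20, the best known regulator of titin exons, was lower at -0.89 (SE 0.24, adjusted p = 0.0065) and -0.74 (SE 0.21, adjusted p = 0.01), and Rbm24 was lower at -1.50 (SE 0.23, adjusted p = 7.8e-05) and -1.72 (SE 0.25, adjusted p = 5.2e-05). Of 11 genes of muscle protein breakdown, 6 were lower in the RV and 7 in the LV, and Capn1 and Capn2, calcium-activated proteases, were higher in both. Fbxo32 (atrogin-1), which is often induced with Trim63, was at -0.80 (SE 0.18, adjusted p = 0.002) and -1.50 (SE 0.23, adjusted p = 8e-05). Klf15 was at -1.47 (SE 0.26, adjusted p = 0.00034) in the RV and Bnip3 at -1.79 (SE 0.25, adjusted p = 4.4e-05) in the LV. Capn1 was higher at 0.81 (SE 0.14, adjusted p = 0.00025) in the RV. Of 8 SRF, MRTF and MEF2 factors, 2 were lower in the RV, a share below that of all genes, and 5 were lower and 2 higher in the LV. Myocd (myocardin) was at -0.74 (SE 0.12, adjusted p = 0.0002) and -1.17 (SE 0.14, adjusted p = 8.6e-06), and Mef2a was at -0.56 (SE 0.11, adjusted p = 0.00075) in the RV. Mef2c was at -1.46 (SE 0.27, adjusted p = 0.00037) in the LV, where Mrtfa and Mrtfb, listed under their older symbols Mkl1 and Mkl2, were higher at 2.05 (SE 0.46, adjusted p = 0.0019) and 0.38 (SE 0.11, adjusted p = 0.012). Cardiomyocyte markers had medians of -0.87 and -1.34 in the same comparisons, and the part of cardiomyocyte content in these lists was not tested.

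**Figure D5:**
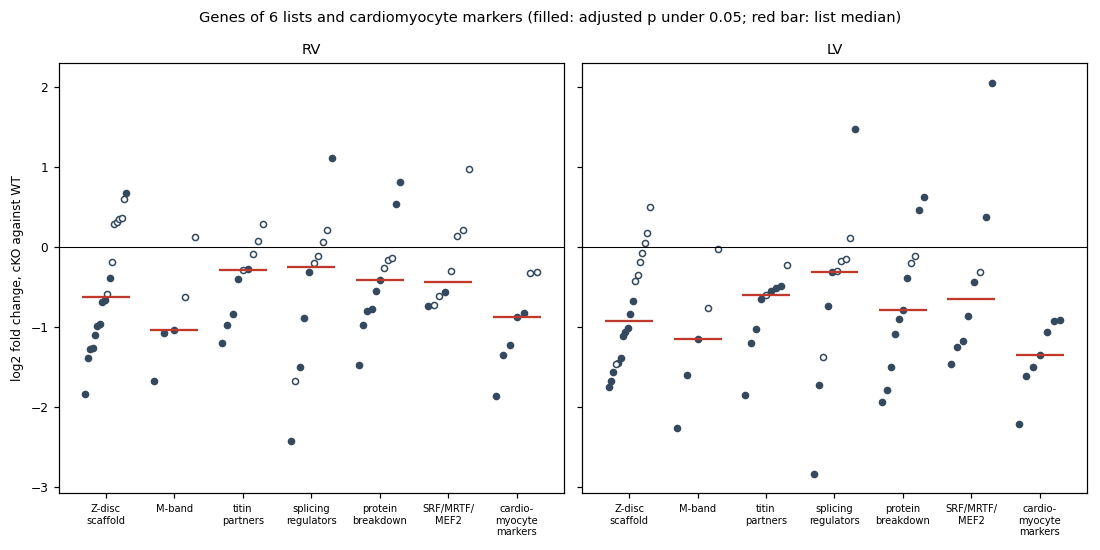
Log2 fold change of cKO against WT for each gene of 6 lists and for 7 cardiomyocyte markers in the RV (left) and LV (right), with points sorted by value, filled where the adjusted p was under 0.05, and a red bar at the median of the list. The bar of each list lies below 0 in both ventricles, and that of the cardiomyocyte markers lies at -0.87 in the RV and -1.34 in the LV.

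In the vector groups, of the 18 Z-disc scaffold genes 8 were higher and 2 lower than WT in AAV_3E13 RV, 9 higher and 2 lower in AAV_1E14 RV, and 13 higher and 2 lower in AAV_1E14_2.5wk RV, beside 21.7%, 29.3% and 36% of all genes called. In AAV_3E13 LV 8 were lower and none higher, a count near the share of all genes called (39%). In the LV of AAV_1E14 and AAV_1E14_2.5wk 0 of 18 were called by edgeR, beside 0.0075% and 1.44% of all genes. Of the titin signalling partners, 2, 3 and 5 of 9 were higher in the RV of the 3 groups in the same order, of which the first 2 counts are near the share of all genes called, and 5 of 9 were lower in AAV_3E13 LV.

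The genes whose levels followed each member most closely were taken by Pearson's r of log2 CPM over the 64 libraries, among 8847 genes with a mean of at least 10 CPM. These values describe libraries that share groups, ventricles and animals. Ttn was closest to Cmya5 (r = 0.964), which encodes the M-band protein myospryn, and Ankrd1 to Nppb (r = 0.897), which encodes brain natriuretic peptide. Xirp2 was closest to Enah (r = 0.904), an actin regulator, and Myot to Tmem144 (r = 0.924) and Myom1 (r = 0.899). Fhl2 was closest to Ppm1l (r = 0.974) and to Hadhb (r = 0.973), an enzyme of fatty acid oxidation, and Trim63 to Slc25a4 (r = 0.965), the ADP/ATP carrier of mitochondria. Csrp3 was closest to Srl (r = 0.931) and Actc1 (r = 0.929), Fhl1 to Spcs3 (r = 0.881) and Xirp1 to Stk40 (r = 0.820).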

How the data were processed

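Total RNA of both ventricles was sequenced for 32 mice. The authors trimmed reads and quantified transcripts with Salmon 1.8.0 against GRCm39, and deposited, per gene, estimated counts, TPM and effective lengths (in bases). The protocol is a stranded total RNA kit in the methods and polyA RNA in the labels. The 10 genes and all lists were chosen with earlier results of these data known. Estimated counts were rounded, 37 mitochondrially encoded genes and 1 row without a name (at most 0.00136% of counts) were left out, and low counts were removed with filterByExpr. Each comparison was fitted on its own libraries with edgeR 4.0.16 (R 4.3.3; TMM, robust quasi-likelihood F test, two-sided), adjusted over all genes tested by Benjamini-Hochberg, and called under 0.05. DESeq2 1.42.0 and limma 3.58.1 served alternatives. The script was tested on simulated data. TPM were rescaled without mitochondrial genes. Effective lengths were compared by exact permutation tests.

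The genes named were all members, Pkp2 and, from each list, the 2 with the smallest p in cKO against WT in each ventricle. Tcap, Flnc, Rbm20, Rbm24, Capn2, Mrtfa and Mrtfb were chosen after their values were seen. Libraries held 7.96 to 14.6 M counts in total, of which 16.6% to 40.2% were mitochondrial. Counting error is small at the levels of the 9 genes tested, and the floors given for Ankrd2 cover counting error only. The SE of a log2 fold change comes from its fit and includes variation between libraries. Ventricles pair by animal, as both come from 1 heart. The deviations of the RV and LV of an animal from their group means correlated at a median of 0.199, and 25 of 32 animals were over 0.1, against a median of -0.0369 between animals. Replicates are separate animals, and no pair of libraries agreed within sampling noise.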

Additional observations from a re-analysis of the deposited data

Results flagged for a closer look

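Among 100 groups of a gene, 6 held a library that stood apart by Dixon's criterion, and chance flags about 1 in 20 groups. Xirp1 was at 243 CPM in library AAV_3E13_LV_2033, above the 162 to 200.1 CPM of the other libraries of that group. It was at 478 CPM in AAV_1E14_2.5wk_LV_5755, above 172 to 275 CPM, and at 156 CPM in AAV_1E14_2.5wk_RV_5806, below 239 to 286 CPM. Ankrd1 was at 172 CPM in WT_RV_2004, above 54.5 to 109.6 CPM. Fhl1 was at 595 CPM in cKO_LV_3213, above 104 to 161 CPM, the same library that held the highest count of Ankrd2. Pkp2 was at 3804 CPM in AAV_1E14_2.5wk_RV_5810, above 1060.3 to 1917 CPM.

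The difference between ventricles in the change from WT was called for 15 pairs of a gene and a group by the interaction test. In AAV_3E13 the RV moved up relative to the LV by 0.50 on the log2 scale for Ttn, 1.43 for Xirp2, 1.14 for Ankrd1, 1.51 for Myot, 1.12 for Fhl1, 0.98 for Fhl2, 0.83 for Csrp3 and 0.51 for Trim63. In AAV_1E14 the values were 0.79 for Fhl1 and 0.77 for Fhl2. In AAV_1E14_2.5wk they were 1.30 for Xirp2, 1.35 for Ankrd1, 0.99 for Myot, 0.77 for Fhl1 and 0.42 for Fhl2. The 3 groups share the WT libraries of both ventricles.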

How the results depend on the processing

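Under the alternative settings, 1919 of the gene values kept their direction and their side of the threshold, 108 lost a call and 61 gained one, and 0 changed direction with a call. With 1 library or animal left out, 2724 kept both, 94 lost a call, 51 gained one and 2 reversed. A value without a call that crossed 0 was not counted as reversed. Both reversals were of Fhl1 without library cKO_LV_3213, at -0.60 (adjusted p = 0.0049) in cKO against WT LV, where the other fits reached 0.52, and at 0.76 (adjusted p = 0.035) in AAV_1E14_2.5wk against cKO LV, where the lowest fit gave -0.35.

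Counts of called members that moved by over 1.5 times were as follows. By the unequal-variance test of log2(TPM + 1), they were 2 in cKO against WT RV and 3 in the LV, 3 in AAV_3E13 against WT LV, 2 and 0 in AAV_3E13 against cKO RV and LV, 1 in AAV_1E14 against cKO LV, 3 and 0 in AAV_1E14_2.5wk against cKO RV and LV, 1 in each of the dose and timing comparisons in the RV, and 0 between ventricles in AAV_1E14. With the relative effective length as a covariate, they were 2 in cKO against WT RV, 3 in AAV_1E14_2.5wk against WT RV, 0 against cKO RV and 0 against AAV_1E14 RV, 0 between ventricles in AAV_1E14, and 1 for the difference between ventricles in cKO and in AAV_1E14_2.5wk. DESeq2 called 5 in AAV_1E14 against AAV_3E13 RV, 1 in AAV_1E14_2.5wk against WT LV and 6 for the difference in AAV_1E14. With all groups of a ventricle in 1 fit, the first 2 of these were 1 and 1. The series of animal numbers (under or over 5000) as a term left 2 in AAV_1E14 against cKO LV, and it could not be fitted for AAV_1E14_2.5wk against cKO. Between ventricles in AAV_1E14, DESeq2 size factors, no filter, mitochondrial genes kept and length offsets each gave 1. The difference in AAV_1E14 was 4 with size factors, and that in AAV_1E14_2.5wk was 3 with no filter. The cause of these changes was not tested. The animal as a replicate block gave 5 for the difference between ventricles in AAV_1E14 and 3 between ventricles in AAV_1E14, and moved no other count by over 1.5 times.

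With 1 library or animal left out, the counts ranged from 2 to 4 in AAV_1E14_2.5wk against AAV_1E14 RV, 0 to 2 against WT LV and 4 to 7 against cKO LV, 0 to 3 between ventricles in AAV_1E14, and 2 to 4 and 3 to 5 for the difference between ventricles in AAV_1E14 and AAV_1E14_2.5wk. Limits were the 4 cKO animals, the bulk tissue, the length factor of WT RV libraries and, for Ankrd2, depth.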
